A study of Mus musculus with 2 samples.

Results

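Igfbp3, Igfbp4, Igfbp5 and Igfbp7, 4 genes for insulin-like growth factor (IGF) binding proteins, were described across the endothelium of mouse lymph nodes. They were picked by symbol from the 32285 genes counted, because earlier results of these data showed that their levels differ between kinds of endothelial cell. Their order across those kinds is therefore given as a description, and tests are given only for lymph node and genotype. IGF binding proteins are secreted carriers that hold IGF1 and IGF2 in blood and tissue fluid, keep them from the IGF1 receptor, and release them when proteases cut the carrier. Vessel walls are both a source and a target of these proteins. IGFBP7 is deposited in vascular basement membrane and binds the endothelial receptor CD93.

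The study profiled sorted endothelial cells of WT and Xbp1-KO mice by single-cell RNA sequencing with the 10x Genomics 3′ assay. XBP1, the product of the targeted gene, switches on secretory pathway genes when unfolded proteins build up. The cells came from pooled peripheral or mesenteric lymph nodes, after depletion of CD45-positive cells, and the study title concerns XBP1 in mucin-producing high endothelial and goblet cells. There were 2 libraries, and each mixed 4 hashtagged pools. Each genotype was sampled in both kinds of node, which gives 4 groups with n = 2 sums of cells per group, 1 from each library. All animals, WT included, had received tamoxifen per the labels. The labels give neither the Cre line nor the deleted part of Xbp1, nor the age, sex and number of animals, and they do not say that the libraries came from separate animals. The p-values below therefore measure only the spread between the libraries' pools.

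The libraries held 33024170 and 14744778 unique molecular identifiers (UMIs, counts of captured RNA molecules) in 7709 and 2903 barcodes. After filtering, 9282 cells remained, of which 9051 fell in 13 endothelial clusters. The libraries shared 3 deposited barcodes and 2 kept ones. Xist, which marks female cells, was detected in 73.1% to 85.4% of cells in the Xbp1-KO pools of library 1 and the WT pools of library 2, and in 0.114% to 1.77% of cells in the other 4. Sex was thus crossed with genotype between the libraries, and within 1 library genotype and sex cannot be told apart. The targeted gene, Xbp1, ranged from 152.8 to 245 CPM (UMIs per 1e6 UMIs of a sum) in WT and from 66.7 to 146.7 CPM in Xbp1-KO capillary-like cells. In lymphatic cells it ranged from 54.9 to 122 CPM in WT and from 47.3 to 53.7 CPM in Xbp1-KO. The groups did not overlap in either class, and Xbp1 transcripts remained in the Xbp1-KO sums.

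The clusters, made without any gene of the IGF system, are called here by class and 2 leading genes. Of 3 capillary-like clusters, Aqp1/Col4a2 held 1049 cells, Col13a1/Plpp3 997 and Fabp4/Aqp7 518. The arterial-like cluster (Stmn2/Sema3g) held 499 cells, the venous-like cluster (Vwf/Cytl1) 107 and the high endothelial-like cluster (Ccl21a/Glycam1) 485. High endothelial cells line the venules through which lymphocytes enter the node. A further 2 blood clusters, Hspa1a/Hspb1 with 1078 cells and Prnd/Kit with 587, had none of their nearest class's markers among their 10 leading genes and stay unnamed. The lymphatic clusters were Ccl20/Coch (1249 cells), Ackr4/Gdf10 (1114), Marco/Lyve1 (551), Nts/Lcn2 (453) and Mrc1/Ptx3 (364), and their cells form the walls of the sinuses that carry lymph through the node.

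Igfbp3 (ENSMUSG00000020427) lies at chr11:7206086-7213923 on the minus strand of GRCm38 with 5 exons, and Igfbp4 (ENSMUSG00000017493) at chr11:99041244-99054392 on the plus strand with 4 exons. Igfbp5 (ENSMUSG00000026185) lies at chr1:72857932-72874884 on the minus strand with 4 exons, and Igfbp7 (ENSMUSG00000036256) at chr5:77349240-77408041 on the minus strand with 6 exons. Igfbp1 lies 3539 bases from Igfbp3, and Igfbp2 lies 5457 bases from Igfbp5. Both of these family members had a median of 0 CPM in every endothelial class. Igfbp7 shares 85 bases at its 3′ end with Polr2b on the opposite strand and spans the antisense gene Gm34648. Gm34648 stayed at a median of 0 CPM, and Polr2b at 17.1 to 48.4 CPM, in the endothelial classes.

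The 250 bases upstream of each RefSeq start (GRCm38.p6, transcribed strand, 5′ to 3′) are shown because the deleted factor acts at promoters and the genotype comparison asks about these genes. Capitals mark any match to a TATATA or a TATA box (TATAAA), or to ACGTG, which is the core of motifs that XBP1 is known to bind. The motifs were chosen after the sequences had been seen.
Igfbp3: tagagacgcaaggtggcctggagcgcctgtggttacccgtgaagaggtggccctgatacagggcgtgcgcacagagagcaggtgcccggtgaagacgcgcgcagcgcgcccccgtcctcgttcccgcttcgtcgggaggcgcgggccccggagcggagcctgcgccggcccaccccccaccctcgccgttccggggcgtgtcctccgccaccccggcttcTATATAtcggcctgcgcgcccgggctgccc
Igfbp4: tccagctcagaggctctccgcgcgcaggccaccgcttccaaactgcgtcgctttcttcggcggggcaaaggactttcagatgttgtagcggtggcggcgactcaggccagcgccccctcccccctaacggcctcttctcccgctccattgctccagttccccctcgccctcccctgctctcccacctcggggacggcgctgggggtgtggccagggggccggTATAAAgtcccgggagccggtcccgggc
Igfbp5: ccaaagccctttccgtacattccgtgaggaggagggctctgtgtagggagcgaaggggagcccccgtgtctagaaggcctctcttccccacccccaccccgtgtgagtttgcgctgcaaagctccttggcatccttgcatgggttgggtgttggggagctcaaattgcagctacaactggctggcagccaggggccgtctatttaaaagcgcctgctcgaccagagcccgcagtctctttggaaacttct
Igfbp7: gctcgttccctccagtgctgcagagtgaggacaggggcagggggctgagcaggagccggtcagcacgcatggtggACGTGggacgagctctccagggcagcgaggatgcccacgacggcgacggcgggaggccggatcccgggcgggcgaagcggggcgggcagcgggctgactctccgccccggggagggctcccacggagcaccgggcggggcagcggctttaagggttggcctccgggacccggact
The windows are chr11:7213924-7214173, chr11:99040994-99041243, chr1:72874866-72875115 and chr5:77408046-77408295 in this order. Both strands were searched. TATATA was found in Igfbp3, 30 to 25 bases before the start, and TATAAA in Igfbp4, 28 to 23 bases before it. ACGTG was found in Igfbp7, 175 to 171 bases before the start. CCAAT was found in none of the 4 windows. Among 27025 promoter windows of this length, 5.56% held TATATA and 12.97% held TATAAA. The share with ACGTG was 16.6% and that with CCAAT 34.5%. These matches describe letters only.

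Igfbp3, whose protein is the main IGF carrier of serum, was highest among endothelial clusters in capillary-like and arterial-like cells. Over the 8 sums of a cluster, its level was 1170 at the lowest, 1705 at the median and 2188 CPM at the highest in Aqp1/Col4a2 cells. It was 605, 1134 and 1701 CPM in arterial-like cells, and 352, 734 and 1774 CPM in Col13a1/Plpp3 cells. The unnamed Hspa1a/Hspb1 and Prnd/Kit clusters had medians of 1072 and 565 CPM. These 5 clusters overlapped each neighbour in the order. A gap followed, since the lowest Prnd/Kit sum (375 CPM) stood above the highest Fabp4/Aqp7 sum (311 CPM). Fabp4/Aqp7 cells, although capillary-like, had a median of 102.0 CPM, venous-like cells 17.7 CPM and high endothelial-like cells 9.63 CPM. No lymphatic sum exceeded 52.4 CPM. Outside the endothelium, the stromal cluster of mural and fibroblastic cells had Igfbp3 at 521 to 991 CPM in peripheral and 63.7 to 436 CPM in mesenteric sums. Of its thinned cells 30.6% had a UMI (33 of 108), a share that is not read as expression, for the reason given below.

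The share of cells with an Igfbp3 UMI followed the same order over the blood clusters. When each cell was thinned to 2000 UMIs and shallower cells were left out, the share was 62.8% in Aqp1/Col4a2 cells (463 of 737, exact binomial 95% interval 59.2 to 66.3%). It was 58.8% in arterial-like cells (183 of 311) and 49.4% in Col13a1/Plpp3 cells (403 of 815). Without thinning the values were 65.8%, 56.1% and 55.2%. In Fabp4/Aqp7 cells it was 14.2% (32 of 226, with 292 shallower cells left out), which did not exceed the 15.2% of leukocyte-like cells (5 of 33 cells, 5.11 to 31.9%). The stromal share given above, 30.6%, also lay within the leukocyte-like interval, with the libraries joined and in each library by itself. Leukocyte-like cells were taken as the background, so no expression is read from either share. This background was uneven: 1 sum of 3 cells held 43 Igfbp3 UMIs, and no other sum held more than 8. By library, the shares were 19.4% and 6.52% in Fabp4/Aqp7 cells and 22.2% (4 of 18) and 6.67% (1 of 15) in leukocyte-like cells. In lymphatic clusters it was 0.502% to 1.69%, and in high endothelial-like cells 1.88%. The interval and all others like it cover counting error only. Within Aqp1/Col4a2 cells the gene was uneven, with a median of 2 UMIs per cell, up to 62 in a single cell, and 49.3% of its UMIs in the top 105 of 1049 cells.

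**Figure D1:**
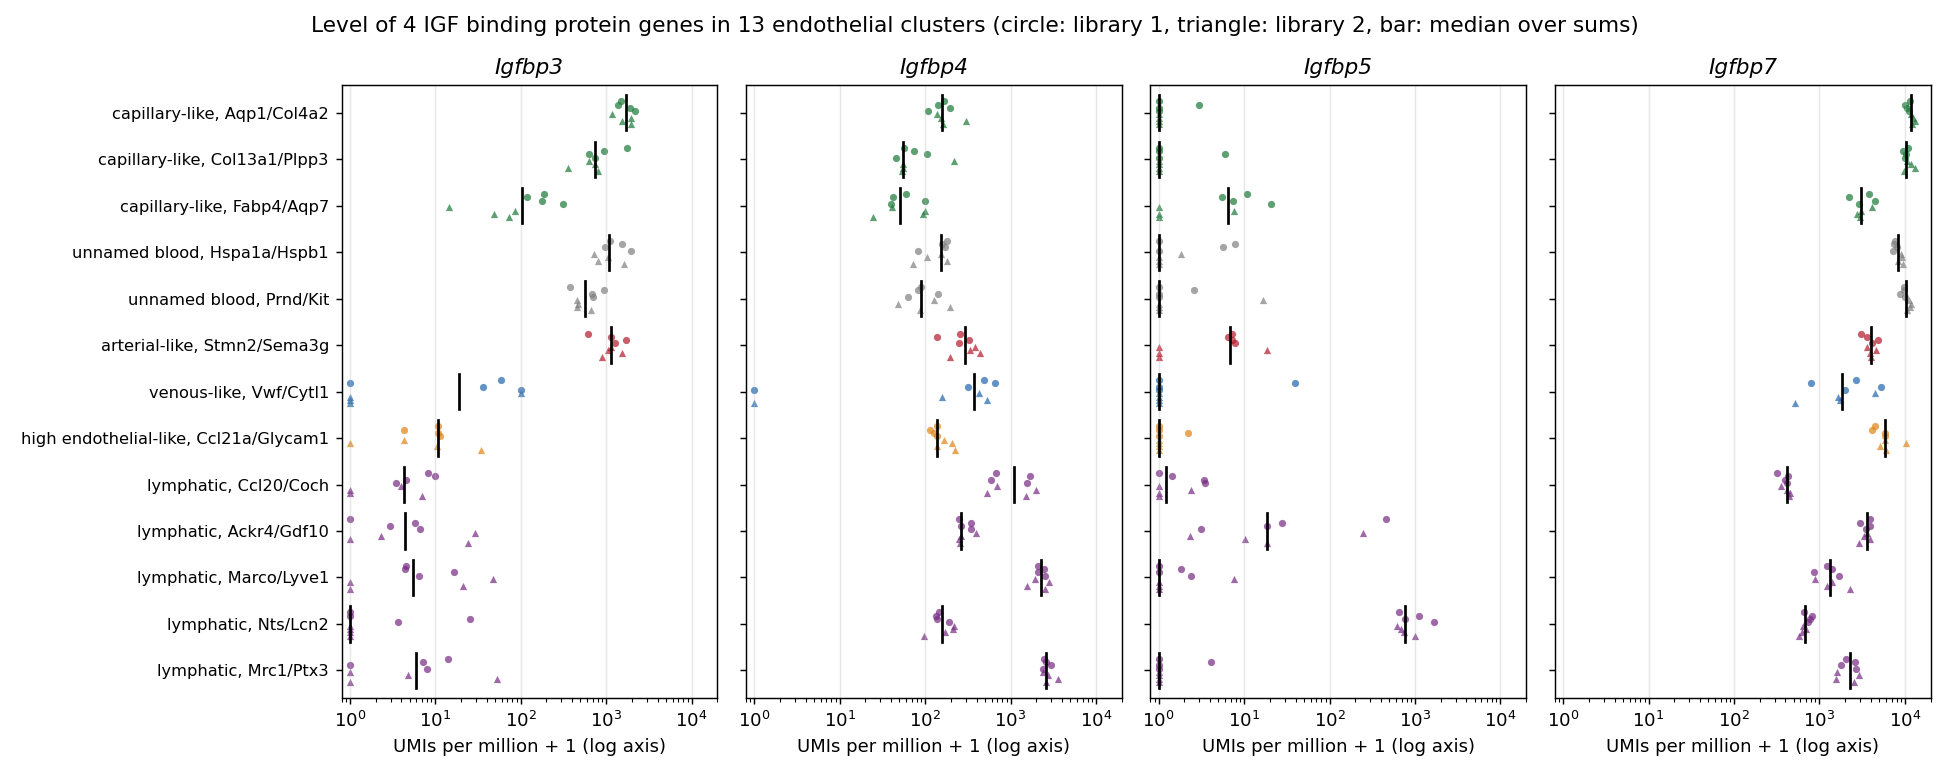
Level of each gene in 13 endothelial clusters: each point is 1 sum of cells (1 library and pool), on a log axis of CPM plus 1, and the bar is the median over the sums. Igfbp3 is high in capillary-like, arterial-like and unnamed blood clusters apart from Fabp4/Aqp7 (median 102.0 CPM), Igfbp4 in 3 lymphatic clusters, Igfbp5 in Nts/Lcn2 cells (median 754 CPM), and Igfbp7 in 4 capillary-like and unnamed blood clusters (medians of 8256 to 11702 CPM).

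Igfbp4, whose protein is cut by the protease PAPP-A, was highest in 3 lymphatic clusters. Its level was 2379 at the lowest, 2622 at the median and 3563 CPM at the highest in Mrc1/Ptx3 cells. It was 1576, 2278 and 2788 CPM in Marco/Lyve1 cells, and 528, 1103 and 1998 CPM in Ccl20/Coch cells. The first and second overlapped, as did the second and the last. The other lymphatic clusters were lower, with medians of 261 CPM in Ackr4/Gdf10 and 156 CPM in Nts/Lcn2 cells. Blood clusters had medians from 49.7 CPM in Fabp4/Aqp7 to 290.3 CPM in arterial-like and 374 CPM in venous-like cells, and high endothelial-like cells stood at 137 CPM.

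Almost every Marco/Lyve1 cell carried Igfbp4: the thinned share was 96.5% (525 of 544 cells, 94.6 to 97.9%). The share was 94.6% in Mrc1/Ptx3 and 84.2% in Ccl20/Coch cells, against 40.7% in Ackr4/Gdf10 and 22.4% in Nts/Lcn2 cells. It was 44.8% in venous-like, 34.4% in arterial-like and 23.6% in Aqp1/Col4a2 cells. In leukocyte-like cells it was 9.09% (3 of 33, 1.92 to 24.3%), at a median depth of 2894.5 UMIs. The shares of 7 endothelial clusters, from 9.82% in Col13a1/Plpp3 to 23.6% in Aqp1/Col4a2 cells, lay within that interval and are not read as expression. The interval rests on 33 leukocyte-like cells, so absence is not read either, and whether these cells express the gene was not tested. Aqp1/Col4a2 (20.6 to 26.8%) stood above Col13a1/Plpp3 cells (7.86 to 12.1%). By library the leukocyte-like share was 11.1% (2 of 18, 1.38 to 34.7%) and 6.67% (1 of 15, 0.169 to 31.9%). The arterial-like share, 31.7% and 38.2%, lay above that interval in library 2 only.

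Igfbp5, whose protein binds extracellular matrix as well as IGFs, was nearly confined to 1 endothelial cluster among the 13. Over the 8 sums of Nts/Lcn2 lymphatic cells it stood at 613 at the lowest, 754 at the median and 1673 CPM at the highest. Every other endothelial cluster had a median of 17.6 CPM or less. In 11 of them the gene had at most 8 UMIs in all cells together. A minority of Nts/Lcn2 cells carried it, with 27.4% of thinned cells positive (109 of 398, 23.1 to 32.1%), and 80.4% of the UMIs lay in the top 46 of 453 cells. A single cell held up to 134 UMIs while the median cell held 0.

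The Ackr4/Gdf10 cluster was the only other endothelial cluster with more than 8 Igfbp5 UMIs, and there a few cells carried nearly all of them. Its 2 Xbp1-KO mesenteric sums stood at 454 and 243 CPM, and its other 6 sums between 1.32 and 26.7 CPM. In library 1, 60 of the 63 UMIs of the Xbp1-KO mesenteric sum came from 1 cell among 26. In library 2, all 94 came from 1 cell among 47. Outside the endothelium, the stromal cluster (121 mural and fibroblastic cells) had a median of 832 CPM and 39.8% of thinned cells with Igfbp5. In Nts/Lcn2 cells, markers from a list of 14 for mural and fibroblastic cells summed to 61.0 to 139 CPM in peripheral and 0 to 105 CPM in mesenteric sums, with Notch3, Cspg4, Pdgfra, Col1a1, Col1a2 and Lum at 0 in both.

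Igfbp7 was present throughout the blood endothelium. Its level was 10053 at the lowest, 11702 at the median and 13145 CPM at the highest in Aqp1/Col4a2 cells. Col13a1/Plpp3 and Prnd/Kit cells had medians of 10370 and 10265 CPM, and Hspa1a/Hspb1 cells 8256 CPM. High endothelial-like cells followed at 5884 CPM (4155 to 10331.5), then arterial-like cells at 3999 CPM, Fabp4/Aqp7 cells at 3046 CPM and venous-like cells at 1859 CPM. Aqp1/Col4a2 and Fabp4/Aqp7 cells did not overlap, so the capillary-like class held both a high and a lower level. High endothelial-like cells are the deepest cluster, and per cell they held the most Igfbp7, 44.2 UMIs against 31.3 in Aqp1/Col4a2 cells.

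Among lymphatic clusters Igfbp7 was graded. Ackr4/Gdf10 cells had a median of 3566 CPM, Mrc1/Ptx3 cells 2299, Marco/Lyve1 cells 1324, Nts/Lcn2 cells 678.5 and Ccl20/Coch cells 420.0 CPM. The lowest Ackr4/Gdf10 sum (2945 CPM) and the highest Mrc1/Ptx3 sum (2949 CPM) met, while the highest Ccl20/Coch sum (451 CPM) stood below the lowest Nts/Lcn2 sum (575 CPM). Ccl20/Coch and Ackr4/Gdf10 cells thus differed in opposite ways for Igfbp4 and Igfbp7. In leukocyte-like cells, taken as the background, 51.5% of thinned cells (17 of 33, 33.5 to 69.2%) had a UMI. The 44.6% of Ccl20/Coch and 61.3% of Nts/Lcn2 cells lay within that interval and are not read as expression. The leukocyte-like share was 72.2% (13 of 18) in library 1 and 26.7% (4 of 15, 7.79 to 55.1%) in library 2, where the 57.8% of Nts/Lcn2 cells (63 of 109) lay above that library's interval. All other endothelial clusters had shares of 82.7% or more.

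**Figure D2:**
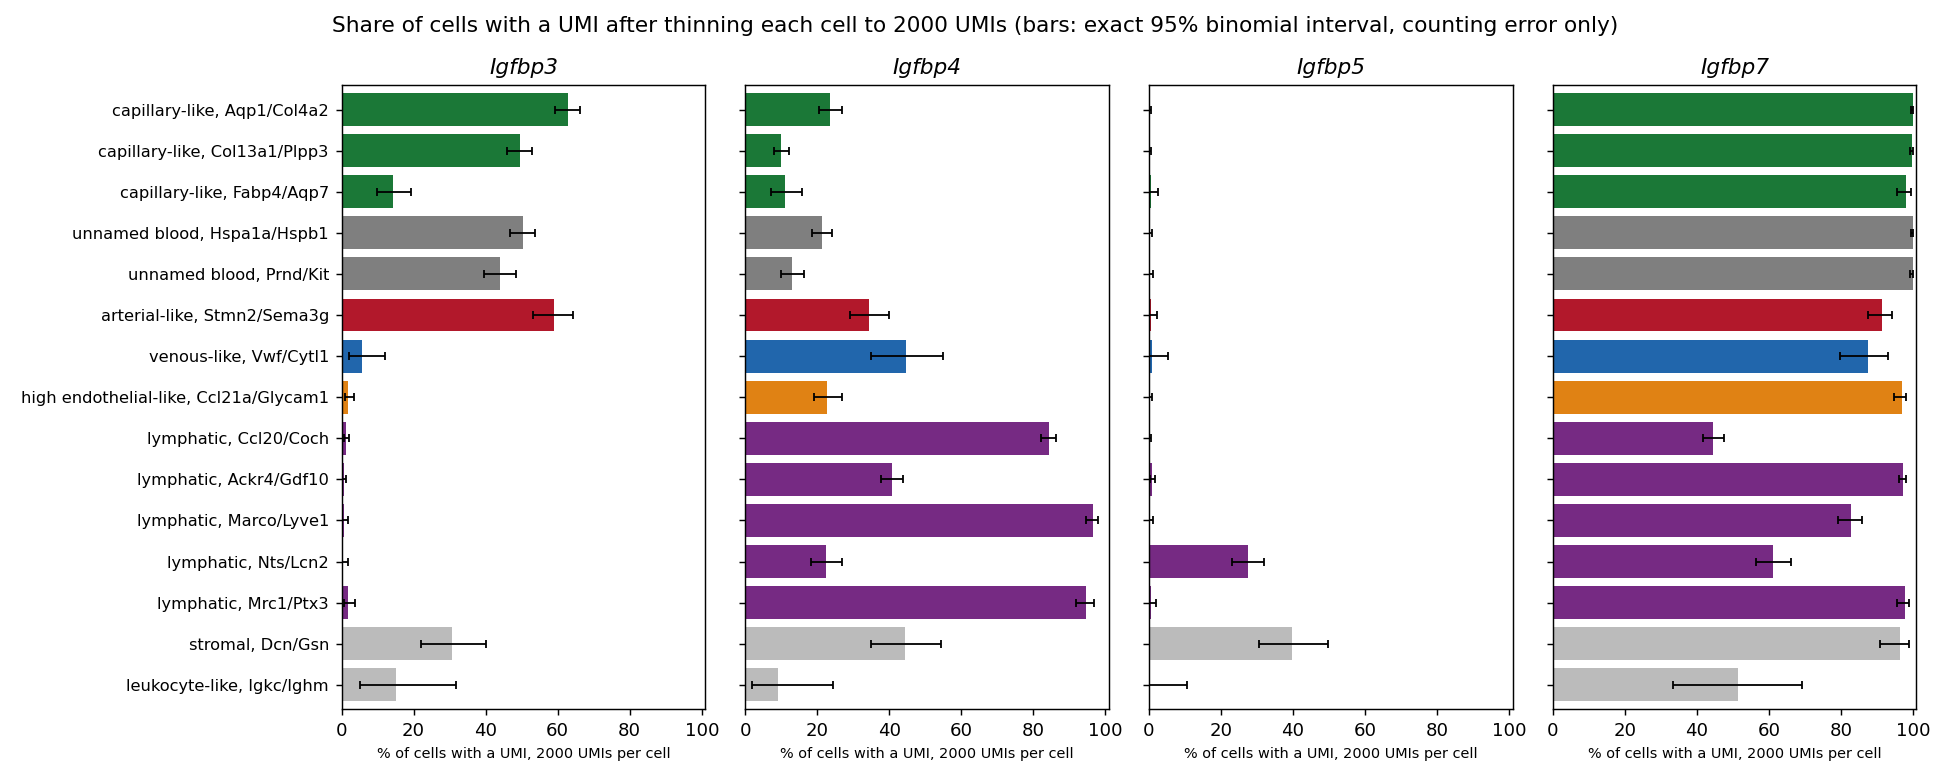
Percentage of cells with at least 1 UMI of each gene after every cell was thinned to 2000 UMIs, with exact 95% binomial intervals. The 2 lowest bars are the stromal and leukocyte-like clusters. Igfbp4 reaches 96.5% in Marco/Lyve1 cells, Igfbp5 27.4% in Nts/Lcn2 cells, and Igfbp7 100% in Aqp1/Col4a2 cells.

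Across the 13 clusters, Igfbp3 and Igfbp7 had correlated levels (Pearson's r of log2(CPM + 1) 0.75 in library 1 and 0.81 in library 2), whereas Igfbp4 and Igfbp7 had r of -0.62 and -0.60. Clusters share libraries and differ in depth, so these are descriptions. The genes most like each member over the 13 clusters were ranked by the lower of the 2 libraries' r among 4981 genes. For Igfbp3 they were Lama3 (0.95), Rapgef4, Prdm1, Hlx and Kctd12b. Lama3 encodes a laminin chain. For Igfbp4 they were Lgmn (0.92), Ctsd, Tgoln1, Itga2b and Emc1. Lgmn and Ctsd encode lysosomal proteases. For Igfbp5 they were Duoxa2 (0.87), Pdlim3, Duox2, Pkhd1l1 and Rhoj, and for Igfbp7 C130074G19Rik (0.92), Gm46565, Sorbs2, Cdipt and Spry1.

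Peripheral and mesenteric nodes were compared within each class as the mean of both genotypes, since the study collected both. Of 12 member tests in 4 classes, edgeR's quasi-likelihood test with Benjamini-Hochberg adjustment over all genes called 1, Igfbp4 in capillary-like cells. In that fit 1.76% of the 8119 genes tested were called. The share was 0.059% in arterial-like, 0.27% in high endothelial-like and 5.02% in lymphatic cells, where no member was called, and 5 of the 12 tests had an unadjusted p under 0.05. Venous-like cells were not tested, because their peripheral sums held 1 to 16 cells. In the separate fits of 11 clusters, 4 of 31 member tests were called, with 12 at an unadjusted p under 0.05. The share of all genes called there was 1.02% in Aqp1/Col4a2, 1.86% in Hspa1a/Hspb1, 0.479% in Col13a1/Plpp3, 1.31% in Prnd/Kit and 0.185% in Fabp4/Aqp7 cells. It was 14.1% in Ccl20/Coch, 5.99% in Marco/Lyve1, 1.76% in Ackr4/Gdf10 and 0.803% in Nts/Lcn2 cells.

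Igfbp4 CPM was lower in peripheral than in mesenteric capillary-like cells. The shares of cells with a UMI in these clusters lay within the leukocyte-like interval, so no difference in expression is read from this call, nor from the Igfbp4 values of Hspa1a/Hspb1 and Col13a1/Plpp3 cells given with it. In peripheral nodes it stood at 61.5 and 79.3 CPM in WT and at 91.8 and 77.7 CPM in Xbp1-KO (library 1 and 2). In mesenteric nodes it stood at 162 and 239 CPM in WT and at 124.5 and 142.0 CPM in Xbp1-KO. All 4 mesenteric sums were above all 4 peripheral sums. The log2 difference was -1.06 ± 0.17 (SE; edgeR adjusted p 0.00256). Without library 1 it was -1.19 with an adjusted p of 0.0756. Leaving out a library leaves 1 sum per node and genotype, so that the spread comes from a fit in which node and genotype effects add and lone sums are assumed to vary alike, here and in all such values below. In leukocyte-like cells Igfbp4 stood at 0, 116, 32.7 and 0 CPM in peripheral sums. In 3 mesenteric sums it stood at 183, 98.5 and 148 CPM. These sums held 2 to 12 cells each, and the other mesenteric sum held no cell. The ranges overlapped and no sum held more than 8 Igfbp4 UMIs, so no direction is read. The part of this background in the result was not tested. Within the largest capillary-like cluster, Aqp1/Col4a2, the log2 difference was -0.49 ± 0.21 (edgeR adjusted p 0.573).

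The makeup of the class differed between nodes. Col13a1/Plpp3 cells, which had the lower Igfbp4 level, were 43.7% to 61.5% of capillary-like cells in peripheral sums and 8.40% to 25% in mesenteric sums. Aqp1/Col4a2 cells were 19.4% to 33.1% and 58.1% to 71.4%. The 6 non-venous blood clusters outside high endothelium all had lower estimates in peripheral nodes, and none of these passed the adjusted test by itself. With the library as a block, the difference passed in Hspa1a/Hspb1 cells (-0.82 ± 0.20, edgeR adjusted p 0.0121, 4.09% of genes called) and in Col13a1/Plpp3 cells (-1.17 ± 0.30, adjusted p 0.0447, 1.29% called). Lymphatic markers, all 7 of a list of 7 detected, summed to 85.7 to 120.4 CPM in peripheral and 59.2 to 339 CPM in mesenteric capillary-like sums, and their part in the result was not tested. Markers of mural and fibroblastic cells, with 12 and 9 of 14 detected, summed to 12.3 to 34.7 and 13.3 to 23.7 CPM.

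In Ccl20/Coch and Marco/Lyve1 lymphatic cells Igfbp4 was higher in peripheral nodes. In the Ccl20/Coch cluster Igfbp4 stood at 1555 and 1515 CPM in WT and 1711 and 1998 CPM in Xbp1-KO peripheral sums. In mesenteric sums it stood at 586 and 528 CPM in WT and 671 and 690.3 CPM in Xbp1-KO. Every peripheral sum was above every mesenteric sum. The log2 difference was 1.27 ± 0.13 (edgeR adjusted p 2.53e-09), and it was 1.39 without library 1 and 1.17 without library 2. Lymphatic markers, 7 of 7 detected, were also higher in peripheral sums of this cluster (1938 to 2415 against 987 to 1412 CPM). High endothelial markers (5 and 6 of 7 detected) were lower there, at 5436 to 9773 against 11549 to 18348 CPM. Markers of mural and fibroblastic cells (11 and 6 of 14 detected, Pdgfrb, Cspg4 and Lum at 0 in both) summed to 301 to 384 against 410 to 696 CPM. The part of these lists in the result was not tested.

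In Marco/Lyve1 cells the rise was smaller. Igfbp4 stood at 2537, 2521, 2453 and 2788 CPM in peripheral and at 2102, 1576, 2072 and 1935 CPM in mesenteric sums, in the order WT of both libraries, then Xbp1-KO. The groups did not overlap, and the difference was 0.42 ± 0.13 (edgeR adjusted p 0.023). The sums were as small as 6 cells, and the call was lost without library 1 (0.59, edgeR adjusted p 0.391) and, with a smaller estimate, without library 2 (0.24, adjusted p 0.467). Mrc1/Ptx3 cells were not tested because 1 sum held 3 cells. Their means were 2585 ± 145 CPM (SD, n = 4 sums) in peripheral and 2847 ± 536 CPM in mesenteric nodes, and these overlapped. Ackr4/Gdf10 (-0.013 ± 0.17) and Nts/Lcn2 cells (0.0039 ± 0.26) had estimates near 0.

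Over all lymphatic cells the Igfbp4 difference was 0.45 ± 0.13, which did not pass (edgeR adjusted p 0.0607) and passed with the library as a block (0.46 ± 0.083, adjusted p 6.08e-05, with 13.9% of genes called). It also passed without library 2 (0.38, edgeR adjusted p 0.00548). The makeup of this class differed between nodes as well: Ackr4/Gdf10 cells were 30.3% to 45.04% of lymphatic cells in peripheral and 15.2% to 21.9% in mesenteric sums, and Nts/Lcn2 cells 7.09% to 12.3% and 9.87% to 38.8%. Both clusters are low in Igfbp4, and the part of the makeup in the class values, and in the test against capillary-like cells, was not tested. Cell groups for the next tests were chosen after their separate effects had been seen, so those p-values are descriptive. The difference between the node effects was itself tested. It was -1.51 ± 0.23 for capillary-like minus lymphatic cells (edgeR adjusted p 0.00101, with 0.536% of 10829 genes called). It was -1.80 ± 0.25 for Aqp1/Col4a2 minus Ccl20/Coch cells (adjusted p 1.35e-05, 1.11% called). The capillary-like arm of both tests is the signal that lay within the leukocyte-like interval, so they compare CPM and no difference in expression is read from them. Between 2 lymphatic clusters, Ackr4/Gdf10 minus Ccl20/Coch, it was -1.28 ± 0.22 (edgeR adjusted p 0.000244, 0.422% called). These comparisons reuse the same pools in both arms and held with pool and library as a block.

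**Figure D3:**
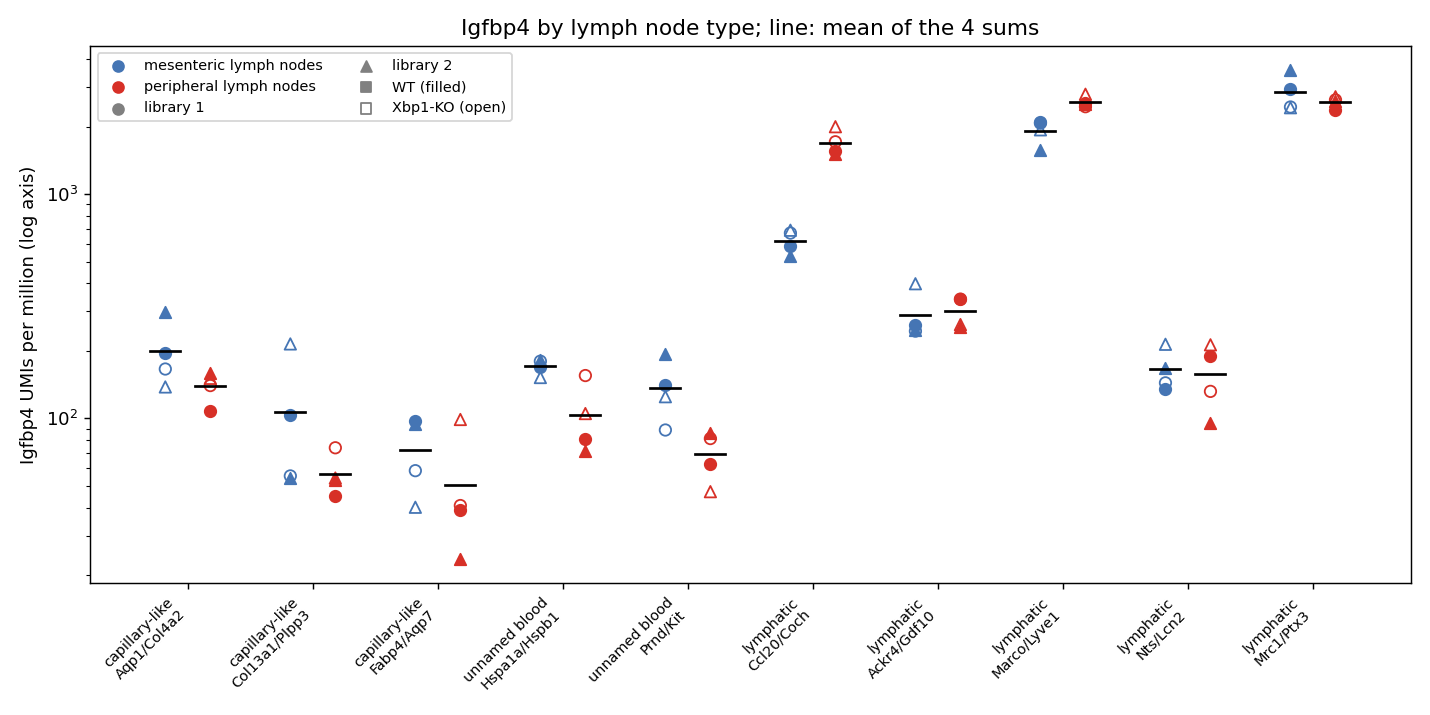
Igfbp4 level (CPM, log axis) in mesenteric (blue) and peripheral (red) sums of 10 clusters; filled symbols are WT, open ones Xbp1-KO, circles library 1, triangles library 2, lines means. Peripheral sums are lower on average in the 5 blood clusters drawn and higher in Ccl20/Coch cells, where 1515 to 1998 CPM stand against 528 to 690.3 CPM.

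Igfbp7 differed between nodes in Marco/Lyve1 cells. It stood at 1691 and 2302 CPM in WT and at 1422 and 1406 CPM in Xbp1-KO peripheral sums, and at 858 and 1233 CPM in WT and 1241.5 and 877.5 CPM in Xbp1-KO mesenteric sums. Every peripheral sum was above every mesenteric sum, with a log2 difference of 0.72 ± 0.14 (edgeR adjusted p 0.000195). It was 0.57 without library 2 (edgeR adjusted p 0.00511), and without library 1 it was as large, 0.77, but did not pass (adjusted p 0.152). Markers of mural and fibroblastic cells summed to 122 to 219.8 CPM in peripheral and 20.2 to 142 CPM in mesenteric Marco/Lyve1 sums, with 5 and 8 of 14 detected and Notch3, Cspg4, Pdgfra, Col1a1, Lum and Pi16 at 0 in both. Lymphatic markers, 7 of 7 detected, summed to 4800.0 to 5891 and 3698 to 4587 CPM. Their part in the Igfbp4 and Igfbp7 results of this cluster was not tested.

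In Ackr4/Gdf10 cells the Igfbp7 estimate had the opposite sign, -0.31 ± 0.11, which passed only with the library as a block (edgeR adjusted p 0.183 and 0.0383, with 3.91% of genes called under the block). The difference between the Marco/Lyve1 and Ackr4/Gdf10 effects was 1.04 ± 0.18 (edgeR adjusted p 0.000104, 1.1% of 8150 genes called). This pair was also chosen after its separate effects had been seen, so the p-value is descriptive. In Mrc1/Ptx3 cells, untested, Igfbp7 was 2713 ± 167 CPM (SD, n = 4 sums) in peripheral and 1761 ± 208 CPM in mesenteric sums, without overlap. Over all lymphatic cells the difference was 0.32 ± 0.10 (adjusted p 0.0889), and it passed with the library as a block (adjusted p 0.0015) and without library 2 (0.26, edgeR adjusted p 0.022). Ackr4/Gdf10 cells, the lymphatic cluster with the highest Igfbp7 level, were the larger share of peripheral lymphatic cells given above, and the part of this in the class difference was not tested. In capillary-like cells it was -0.051 ± 0.14 and in Ccl20/Coch cells 0.0024 ± 0.14.

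Igfbp7 in high endothelial-like cells had a node difference of 0.30 ± 0.20 (edgeR adjusted p 0.869). The peripheral sums held only 10 to 45 cells and ranged from 4155 to 10331.5 CPM, and the mesenteric sums from 4438 to 5929 CPM. The highest was the Xbp1-KO peripheral sum of library 2, with 10 cells. In library 2 alone, with 1 sum per node and genotype, the difference was 0.58 with an adjusted p of 0.00271, and its peripheral sums held 10 and 11 cells.

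Igfbp3 was higher in peripheral than in mesenteric Hspa1a/Hspb1 cells. Peripheral sums stood at 1937 and 1631 CPM in WT and at 1540 and 1045 CPM in Xbp1-KO, and mesenteric sums at 969 and 809 CPM in WT and at 1100 and 718 CPM in Xbp1-KO. The Xbp1-KO peripheral sum of library 2 fell below the Xbp1-KO mesenteric sum of library 1, so the groups overlapped, but peripheral was higher in each library and genotype. The difference was 0.70 ± 0.17 (edgeR adjusted p 0.0358). High endothelial markers, with 5 of 7 detected, summed to 944 to 1621 CPM in peripheral and 476 to 766 CPM in mesenteric sums of this cluster, and their part was not tested. Of the 6 blood clusters tested outside high endothelium, 5 had Igfbp3 estimates above 0 and 1, the arterial-like cluster, below 0; only Hspa1a/Hspb1 cells passed. Over the named capillary-like class, whose makeup differed between nodes, the estimate was -0.19 ± 0.16 (edgeR adjusted p 0.902), and it passed without library 2 (-0.27, adjusted p 0.0291). It was 0.30 ± 0.16 within Aqp1/Col4a2 cells, and the difference between the Hspa1a/Hspb1 and Col13a1/Plpp3 effects did not pass (0.64 ± 0.36, adjusted p 1.0, 0.0% of 4810 genes called).

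Igfbp5 in Nts/Lcn2 cells stood at 1673 and 993 CPM in WT and 1116 and 681 CPM in Xbp1-KO peripheral sums. In mesenteric sums it stood at 757 and 750.5 CPM in WT and 653 and 613 CPM in Xbp1-KO. One peripheral sum, Xbp1-KO of library 2, lay within the mesenteric range. The difference was 0.70 ± 0.22 and passed only with the library as a block (edgeR adjusted p 0.24 and 0.00236, with 1.98% of genes called under the block). Over all lymphatic cells the estimate had the other sign and did not pass (-0.84 ± 0.25, adjusted p 0.111). It passed without the filter on low counts (-0.81, edgeR adjusted p 2.86e-07), without library 1 (-1.10, adjusted p 6.19e-06) and in DESeq2 (-0.90, adjusted p 0.00502). When the cell with most Igfbp5 UMIs in each Ackr4/Gdf10 sum was left out, a choice made after seeing the data, the Xbp1-KO mesenteric sums of lymphatic cells went from 149.7 and 106 CPM to 81.8 and 50.7 CPM, against 53.4 and 69.8 CPM in Xbp1-KO peripheral sums. The estimate was then -0.42. These cells were picked by their Igfbp5 UMIs, so the values are a description, with no test. Nts/Lcn2 cells were 7.09% to 12.3% of lymphatic cells in peripheral sums and 9.87% to 38.8% in mesenteric sums.

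**Figure D4:**
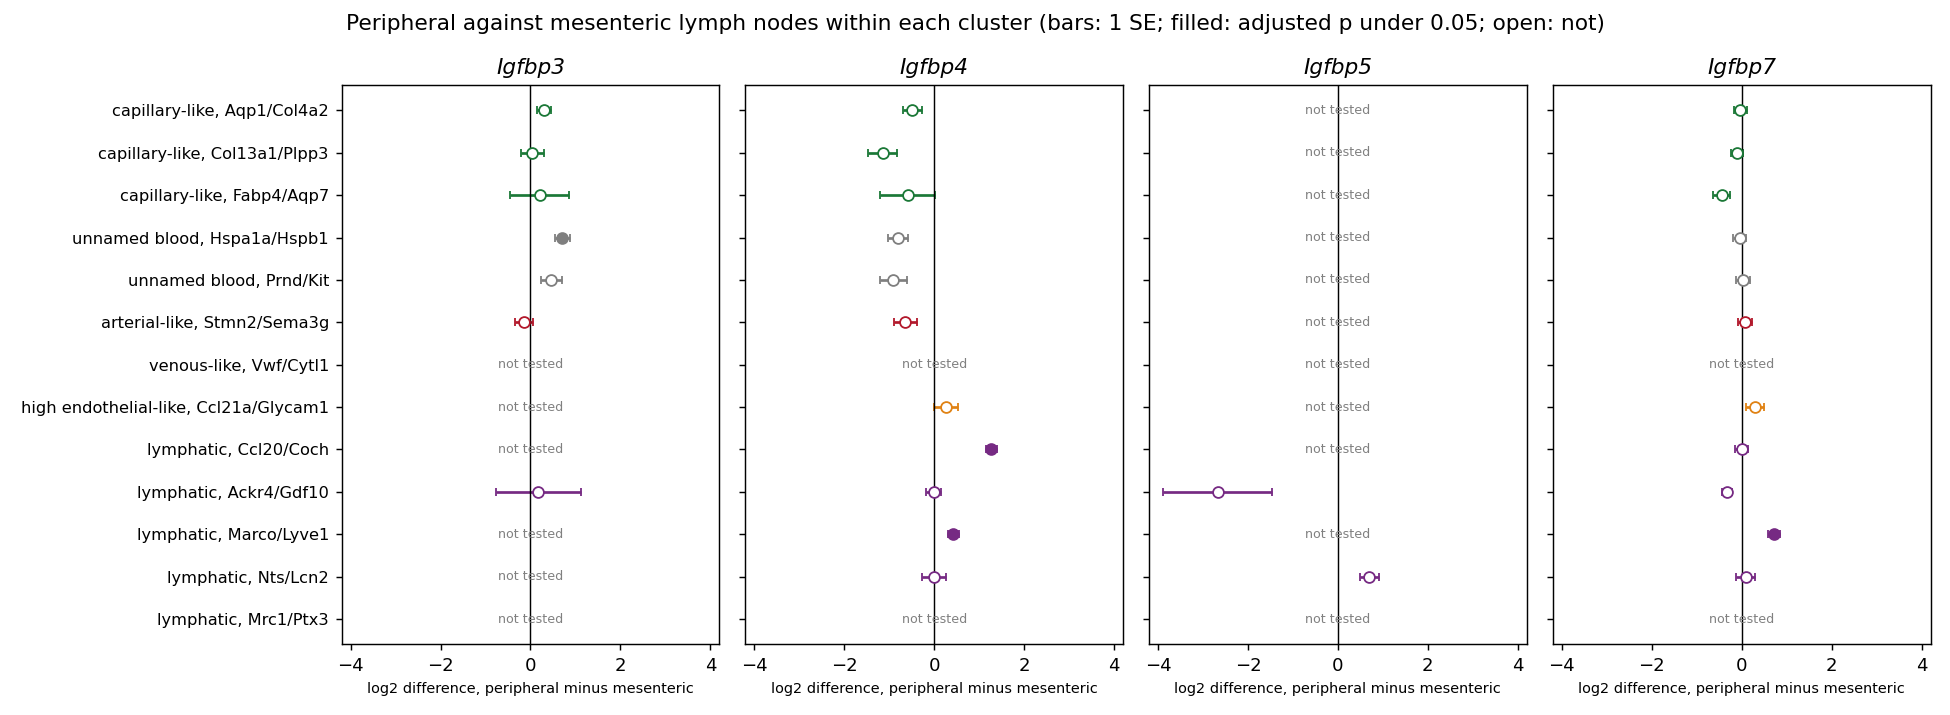
Log2 difference between peripheral and mesenteric nodes (edgeR, bars 1 SE) for each gene and cluster; filled points passed an adjusted p of 0.05. The 4 filled points are Igfbp3 in Hspa1a/Hspb1 cells, Igfbp4 in Ccl20/Coch and Marco/Lyve1 cells, and Igfbp7 in Marco/Lyve1 cells.

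Xbp1-KO was then compared with WT as the mean of both nodes, the comparison that the study's title points to. None of the 12 member tests in classes passed (edgeR, 3 at an unadjusted p under 0.05). DESeq2 also called 0, with 2 at an unadjusted p under 0.05. Over all genes edgeR called 0.0% in each of the 4 classes, and DESeq2 called 0.0748% in lymphatic cells and 0.0% in the others. The targeted gene Xbp1 was therefore not called by edgeR either, although its sums did not overlap in capillary-like and lymphatic cells. A lack of calls is thus not read as a lack of effect. In clusters, 0 of 31 member tests passed (edgeR, 3 at an unadjusted p under 0.05). Of all genes there, 0.258% were called in Ccl20/Coch, 0.168% in Marco/Lyve1, 0.114% in Prnd/Kit, 0.0212% in Aqp1/Col4a2 and 0.0126% in Ackr4/Gdf10 cells, and 0.0% in the other 6.

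Igfbp7, the member with ACGTG in its promoter window, had estimates of -0.013 ± 0.14 in capillary-like, 0.060 ± 0.21 in high endothelial-like, -0.18 ± 0.15 in arterial-like and -0.15 ± 0.10 in lymphatic cells. In high endothelial-like cells its WT sums ranged from 5079 to 6094 CPM and its Xbp1-KO sums from 4155 to 10331.5 CPM, so the groups overlapped. Igfbp3 in capillary-like cells stood at 1005 to 1348 CPM in WT and 816 to 1214 CPM in Xbp1-KO sums, with an estimate of -0.23 ± 0.16. In arterial-like cells it stood at 896 to 1701 CPM and 605 to 1141 CPM (-0.43 ± 0.19, edgeR adjusted p 1.0). Within Col13a1/Plpp3 cells the Igfbp3 estimate was positive (0.64 ± 0.25), with overlapping sums.

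In the edgeR class fits with the filter on low counts and no library block, Igfbp4 in lymphatic cells was the member nearest to a genotype call. In peripheral nodes it stood at 1333 and 1052 CPM in WT and at 1433 and 1347 CPM in Xbp1-KO. In mesenteric nodes it stood at 886 and 592 CPM in WT and at 1149 and 1002 CPM in Xbp1-KO. Every Xbp1-KO sum was above every WT sum of the same node, and the genotypes overlapped only with the nodes pooled. The difference was 0.35 ± 0.13 (edgeR adjusted p 0.756) and passed with the library as a block (0.36 ± 0.083, adjusted p 0.00943, with 1.47% of 10702 genes called). It was 0.54 without library 1 and 0.19 without library 2. Within clusters the estimates were smaller, 0.23 ± 0.13 in Ccl20/Coch, 0.10 ± 0.13 in Marco/Lyve1 and 0.19 ± 0.17 in Ackr4/Gdf10 cells. Ccl20/Coch cells were 22.7% to 35.2% of lymphatic cells in WT sums and 32.8% to 42.2% in Xbp1-KO sums.

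Igfbp5 in lymphatic cells had a genotype estimate of -0.66 ± 0.25 (edgeR adjusted p 0.816), which passed without the filter on low counts (-0.65, adjusted p 0.0012). It also passed in library 2 alone (-0.76, adjusted p 0.0331), where each group is 1 sum and genotype cannot be told apart from sex. Without the highest Igfbp5 cell of each Ackr4/Gdf10 sum the estimate was -1.17, again a description with no test. Its sums ranged from 85.7 to 247 CPM in WT and from 60.5 to 149.7 CPM in Xbp1-KO and overlapped. Within Nts/Lcn2 cells the estimate was -0.44 ± 0.22. Nts/Lcn2 cells were 11.2% to 38.8% of lymphatic cells in WT sums and 7.09% to 18.1% in Xbp1-KO sums. Whether the genotype effect depended on the node was tested in the same fits, and 0 of 12 class tests and 0 of 31 cluster tests passed (edgeR, 2 and 4 at an unadjusted p under 0.05; DESeq2, 0 and 0 in the classes). Of all genes, edgeR called 0.0295% in arterial-like and 0.0% in the other classes, and DESeq2 0.0187% in lymphatic and 0.0% in the others. In clusters edgeR called 0.0925% in Fabp4/Aqp7, 0.0469% in Ccl20/Coch and 0.0378% in Ackr4/Gdf10 cells.

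**Figure D5:**
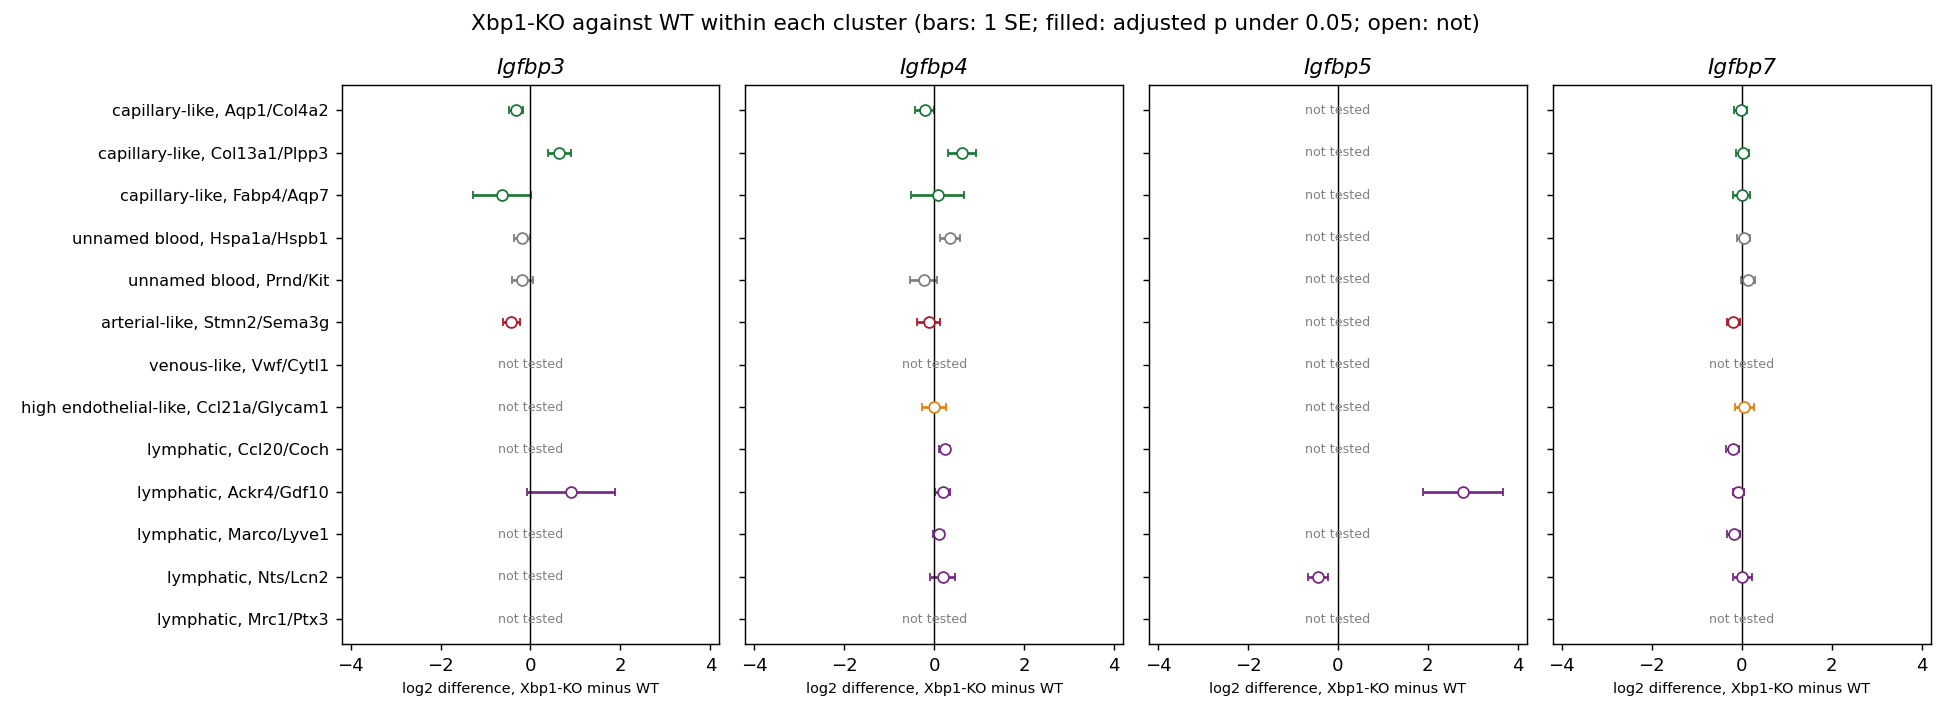
Log2 difference between Xbp1-KO and WT (edgeR, bars 1 SE) for each gene and cluster, mean of both nodes. No point is filled, since no member passed an adjusted p of 0.05; the widest bars are those of Igfbp3 and Igfbp5 in Ackr4/Gdf10 cells.

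The rest of the IGF system was read from a list of 28 genes. Ligands were sparse in blood endothelium. Igf1 had a median of 115 CPM in lymphatic and 5.47 CPM in capillary-like cells, and Igf2 reached 32.7 CPM in arterial-like cells. Among receptors, Igf1r had medians of 213 CPM in lymphatic and 105 CPM in capillary-like cells, and Insr, the insulin receptor, 21.9 and 67.2 CPM. Cd93, the receptor that IGFBP7 binds, had medians of 742 CPM in capillary-like and 107 CPM in lymphatic cells. The proteases PAPP-A and PAPP-A2 (Pappa, Pappa2) had a median of 0 CPM in every endothelial class, while Stc1, encoding an inhibitor of these proteases, had 113 CPM in capillary-like and 183 CPM in arterial-like cells. Htra1, encoding another protease that cuts IGF binding proteins, stood at 85.3 CPM in arterial-like cells.

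Between nodes, 2 of 13 tested list genes rose in peripheral capillary-like cells and none fell, where 1.76% of all genes were called. Under the library block Igf2r was called too, as lower (3.65% of all genes called). Shares of cells were not set against leukocyte-like cells for the list genes, so their differences are of CPM only. Insr stood at 78.6 to 98.5 CPM in peripheral and 30.8 to 55.9 CPM in mesenteric sums (1.05 ± 0.18, edgeR adjusted p 0.00404). Stc1 stood at 115 to 173.5 and 52.1 to 111.7 CPM (0.89 ± 0.18, adjusted p 0.0137), again without overlap. The makeup of this class differed between nodes, as given above, and its part in both calls was not tested. Insr was not among the genes called within Aqp1/Col4a2, Col13a1/Plpp3 or Fabp4/Aqp7 cells. The median over the 13 tested genes was 0.031, against -0.0091 over all genes. Stc1 was also higher in the peripheral sums of Aqp1/Col4a2 (0.94 ± 0.21), Hspa1a/Hspb1 (1.43 ± 0.20) and Col13a1/Plpp3 cells (1.62 ± 0.37), with adjusted p of 0.00668, 0.000314 and 0.045.

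In lymphatic cells 1 of 16 tested list genes passed and was lower, a share near the 5.02% of all genes called. It was Socs2, a feedback inhibitor of cytokine and growth hormone signalling (-0.47 ± 0.12, edgeR adjusted p 0.0341). Under the library block Igf1 and Stc2 passed too, as higher (13.9% of all genes called). In Ccl20/Coch cells 3 of 15 rose and none fell, where 14.1% of all genes were called, so nothing is read from the count. With the block Igf1r was called too, as higher (16.4% called). The 3 genes were Igf1 (0.81 ± 0.16, adjusted p 0.000313), Igf2r, encoding the receptor that clears IGF2 (0.75 ± 0.24, 0.0285), and Stc2, encoding another stanniocalcin (0.98 ± 0.31, 0.0301). Igf1 stood there at 224 to 327 CPM in peripheral and 102 to 159 CPM in mesenteric sums, and thus ran in the same direction as Igfbp4 in these cells. Igf1 and Stc2 also rose in Marco/Lyve1 cells (0.75 ± 0.20 and 0.92 ± 0.22, adjusted p 0.00891 and 0.00319), and Igf1 in Ackr4/Gdf10 cells (1.23 ± 0.28, 0.0154), where Socs2 fell by 0.94 on the log2 scale (adjusted p 0.00054). Arterial-like and high endothelial-like cells had 0 list genes called of 9 and 12 tested (edgeR). For genotype, 0 list genes were called in the 4 classes, with 9 to 16 tested.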

How the data were processed

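Gene expression was measured in 2 droplet libraries of 4 hashtagged pools each. The deposited values are raw counts of UMIs per gene and barcode and of hashtag UMIs, made by the authors with Cell Ranger (version 6.0.1 per the file headers, 6.1 per the submitters' processing notes, with build mm10). Whether intronic reads were counted is not given in the sources used here, and the labels disagree on the kit (version 2 or version 3). The members, lists and tests were chosen with earlier results of these data known.

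Hashtags were called with HTODemux (Seurat 5.3.0, quantile 0.99), and barcodes were kept if they had 1 tag, 500 or more genes and no more than 10% of UMIs from mitochondrial genes. Barcodes with more than 1 tag (685 and 130) were removed as doublets, and Scrublet removed 60 and 2 more. It marked 24.8% and 1.54% of the barcodes with more than 1 tag, so doublets that share a tag mostly remain. Cells were clustered in scanpy 1.11.5 (1987 variable genes after removing the IGF genes, Xbp1 and sex-linked genes, 30 components, 15 neighbours, Leiden resolution 1). A cluster took the class of its nearest marker list if at least 3 of its markers were detected and no other class had more markers among its 10 leading genes. Lymphatic clusters needed Prox1 in at least 25% of cells, and all other names a marker of their own among those 10 genes. Since names were rebuilt here, shares may differ from the study's own.

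UMIs were summed per library, pool and class or cluster, CPM being UMIs per 1e6 UMIs of a sum. Sums were tested with edgeR 4.0.16 (TMM, filterByExpr, quasi-likelihood, Benjamini-Hochberg over all genes), without a library block, in groups of node and genotype with at least 5 cells in every sum. Each library holds all 4 pools, so the libraries pair the sums by design, and deviations from group means correlated between pools of 1 library at r of 0.11 to 0.29 in capillary-like, 0.10 to 0.25 in arterial-like, 0.01 to 0.21 in high endothelial-like and 0.06 to 0.23 in lymphatic cells. The text names the 4 members, list genes that pass, and the 5 genes most like each member. The scripts were tested on simulated data. Coordinates are from GENCODE M21, and R 4.3.3 and DESeq2 1.42.0 were used.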

Additional observations from a re-analysis of the deposited data

Results flagged for a closer look

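In 4 cases the node effect of a member differed between cell groups by a test of that difference (edgeR quasi-likelihood test). The Igfbp4 effect was lower by a log2 of -1.51 in capillary-like than in lymphatic cells, by -1.80 in Aqp1/Col4a2 than in Ccl20/Coch cells, and by -1.28 in Ackr4/Gdf10 than in Ccl20/Coch cells. In capillary-like and Aqp1/Col4a2 cells the share of cells with an Igfbp4 UMI lay within the leukocyte-like interval, so the comparisons with these cells are of CPM and no difference in expression is read from them. The Igfbp7 effect was 1.04 higher in Marco/Lyve1 than in Ackr4/Gdf10 cells. These cell groups were chosen for the tests after their separate effects had been seen.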

How the results depend on the processing

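With library as a replicate block, the number of genes called between nodes was 296 in capillary-like, 21 in arterial-like, 42 in high endothelial-like and 1487 in lymphatic cells (143, 2, 16 and 537 without the block). For genotype the block gave 7, 1 and 157 in capillary-like, arterial-like and lymphatic cells, and for the interaction 1, 6 and 28. It turned the Igfbp4 genotype estimate in high endothelial-like cells to 0.018.

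Without the filter on low counts the node counts were 243, 7, 43 and 836 in the same order. The genotype counts were 6, 1 and 64, and the interaction counts 2, 4 and 20, in capillary-like, arterial-like and lymphatic cells. DESeq2 called 313 genes between nodes, 8 for genotype and 2 for the interaction in lymphatic cells, and 0 for the interaction in arterial-like cells. WT sums alone gave node counts of 82, 0, 2 and 107. The hashtag ratio rule gave 5 in arterial-like and 10 in high endothelial-like cells. The largest cluster alone gave 48 and 1202 node calls, 1 and 22 genotype calls in capillary-like and lymphatic cells, and 4 interaction calls in lymphatic cells. It also took Igfbp4 in capillary-like cells to -0.49. The cause was not tested, beyond there being fewer cells and genes in some of these fits.

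Without 1 library, the node counts ranged from 29 to 505 in capillary-like, 0 to 7 in arterial-like, 25 to 53 in high endothelial-like and 250 to 1062 in lymphatic cells. The genotype counts ranged from 1 to 59, 1 to 3, 17 to 67 and 39 to 40. The Igfbp4 node difference ranged from -1.19 to -0.97 in capillary-like and from 0.24 to 0.59 in Marco/Lyve1 cells, and that of Igfbp7 in Marco/Lyve1 cells from 0.57 to 0.77.

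All 31 member estimates that changed sign had not been called. For nodes, Igfbp7 in arterial-like cells became -0.11 in WT sums, -0.0044 with the hashtag ratio and -0.0013 without the filter, and Igfbp3 in capillary-like cells became 0.30 in the largest cluster. With both unnamed blood clusters added, an alternative chosen after seeing the data, Igfbp7 in capillary-like cells became 0.065 between nodes, 0.014 for genotype and -0.0024 for the interaction, and the Igfbp3 interaction became -0.010. Igfbp4 for genotype in high endothelial-like cells became 0.023 without the filter. The Igfbp7 interaction in capillary-like cells became -0.0084 with the hashtag ratio and -0.037 in the largest cluster, where the lymphatic interactions of Igfbp7 and Igfbp4 became 0.30 and 0.0061. Without the highest Igfbp5 cell of each Ackr4/Gdf10 sum, also chosen after seeing the data, the lymphatic Igfbp5 interaction became 0.53.

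Further sign changes came when 1 library was left out. Between nodes, the 2 values were -0.12 and 0.029 for Igfbp7 in capillary-like cells, -0.014 and 0.17 for Igfbp7 and -0.46 and 0.17 for Igfbp3 in arterial-like cells, and -0.049 and 0.59 for Igfbp4 in high endothelial-like cells. For genotype, they were -0.38 and 0.13 for Igfbp4 and -0.11 and 0.067 for Igfbp7 in capillary-like cells, -0.55 and 0.13 for Igfbp4 and -0.42 and 0.041 for Igfbp7 in arterial-like cells, and -0.0055 and 0.26 for Igfbp4 and -0.20 and 0.25 for Igfbp7 in high endothelial-like cells. For the interaction, they were -0.039 and 0.25 for Igfbp3 and -0.30 and 0.34 for Igfbp7 in capillary-like cells, and -0.50 and 0.91 for Igfbp4 in arterial-like cells. In lymphatic cells they were -5.34 and 1.34 for Igfbp3, -1.49 and 0.96 for Igfbp5, and -0.20 and 0.042 for Igfbp7.

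Gene counts for the interaction were not possible without 1 library, since no residual degrees of freedom remain. The precision is limited by n = 2 sums per group, some of them of 10 cells or fewer.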
